A study of Rattus norvegicus with 16 samples.

Results

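The livers of rats injected with 40 mg/kg xylazine were compared with those of rats injected with 10 mg/kg, across all genes expressed in either. The comparison used 8 of the study's 16 libraries, 4 a dose, and libraries were assigned to a dose by their labels. The animals were male SD rats from a study of 40, injected into the peritoneum over 28 days, and 4 liver samples of each group were sequenced. The sources used here do not say that each came from a different rat. The p-values therefore set the dose difference against the spread between these samples, which may not be a spread between rats. Each sample is called a liver below. Age, the hour of the last injection and the hour of sampling are not given in the sources used here. No saline library enters the comparison, so it gives differences between doses and not from untreated liver. The 4 libraries of the intermediate dose, 20 mg/kg, are used only to describe where their levels lay.

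Xylazine is a sedative used in animals that activates alpha-2 adrenergic receptors. Liver switches with feeding and hormones between making fuel and storing it. In the fed state, insulin and the transcription factor SREBP-1 drive enzymes that turn citrate into fatty acids. In fasting, glucagon and glucocorticoids raise enzymes that make glucose from amino acids and lactate. Most hepatocytes of the adult liver do not divide.

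The expected counts, the deposited estimates of reads per gene, summed to between 16236208 and 16828754 per library at 10 mg/kg and between 16059922 and 16859622 at 40 mg/kg. Levels are given as CPM, a gene's count relative to its library's total after scaling by TMM factors, which lay between 0.919 and 1.01 at 10 mg/kg and between 1.01 and 1.06 at 40 mg/kg. The 10 most abundant genes held 26.3% to 28.5% of the counts of a library at 10 mg/kg and 25.2% to 25.8% at 40 mg/kg. On the first principal component (24.8% of the variance) the 40 mg/kg livers lay between 12.5 and 21.3 and the 10 mg/kg livers between -27.6 and -1.81. Replicate 1 of 10 mg/kg stood apart from the other 7 libraries on the second component (16.8% of the variance), at 38.4, where those lay between -15.5 and 1.57. Hepatocyte markers summed to between 190300 and 225300 CPM at 10 mg/kg and between 179300 and 196000 CPM at 40 mg/kg, with none of the 14 at 0.

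Of 17544 genes in the table, 12383 had enough counts to be tested with edgeR's quasi-likelihood test. At a Benjamini-Hochberg adjusted p under 0.05, taken over all tested genes, 73 genes passed, which is 0.59% of those tested. Of these, 26 were higher at 40 mg/kg (0.21%) and 47 were lower (0.38%). Their median log2 fold change was 0.80 for the higher and -0.83 for the lower genes, and 25 changed by at least 1 on the log2 scale, 8 higher and 17 lower. In all 73 the 4 livers of one dose lay outside the range of the other dose, as they did in 988 genes (7.98%) of all tested. Of these 988, 440 were higher and 548 lower at 40 mg/kg. An unadjusted p under 0.05 was found for 1633 genes, 729 higher and 904 lower. The split depended on the scaling: total count scaling gave 53 higher and 28 lower genes, while 51 higher and 20 lower genes were found by limma on log2(TPM + 1). The count depended on single livers: it was 183 without replicate 1 of 10 mg/kg, the liver that stood apart, and 20 without replicate 2 of that dose. It was 39 without replicate 3 of 10 mg/kg, and 47, 36 and 30 without replicates 1, 2 and 3 of 40 mg/kg. Without replicate 4 of 40 mg/kg it was 49, and 84 without replicate 4 of 10 mg/kg.

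**Figure D1:**
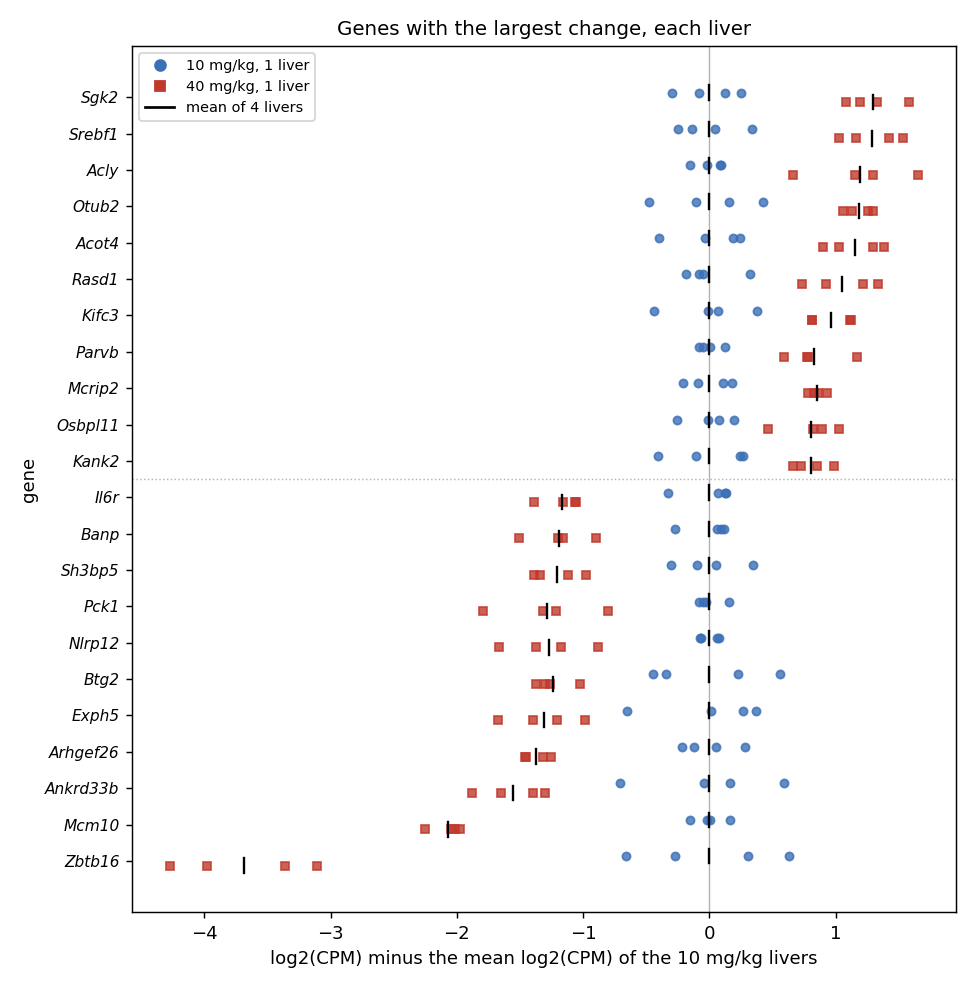
Level of 11 higher and 11 lower named genes among those with the largest change, as log2 CPM minus the mean of the 10 mg/kg livers (x axis). Each circle is a 10 mg/kg liver, each square a 40 mg/kg liver and each bar a mean of 4 livers; in all 22 genes the doses do not overlap, and Zbtb16 lies farthest from 0.

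Fatty acid synthesis was the list with the most members that passed as higher at 40 mg/kg. Of the 15 tested members of the de novo lipogenesis list, 14 had a positive log2 fold change and 4 passed, all higher. The list's median log2 fold change was 0.83, where that of all genes tested was 0.00067. In 10 members the 40 mg/kg livers all lay above the 10 mg/kg livers, as they did in 440 of all 12383 genes tested. Under total count scaling and limma on TPM all 15 members were positive, and 5 passed; DESeq2 called 10. Without replicate 2 or 3 of 10 mg/kg or replicate 3 of 40 mg/kg 1 member passed, 2 passed without replicate 1 or 2 of 40 mg/kg, and the members passing were otherwise 3 or 4.

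Srebf1 (gene 78968) encodes SREBP-1, which binds promoters of lipogenic genes and raises their transcription. Its level was 159, 171, 194 and 238 CPM in the 10 mg/kg livers and 421, 545, 384 and 503 CPM in the 40 mg/kg livers. Every 40 mg/kg liver thus held more than every 10 mg/kg liver. Srebf1 rose by 1.28 on the log2 scale (SE 0.15, adjusted p = 0.00686), from 190 ± 34.7 to 463 ± 74.1 CPM (SD, n = 4 each). Its call held without any 1 library and in the 12 other alternatives run for single genes. At 20 mg/kg it stood at 430 ± 83.5 CPM, between the other doses and nearer to 40 mg/kg.

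Acly (gene 24159), the ATP citrate lyase, cleaves citrate into the acetyl-CoA that fatty acid synthesis uses. Its 10 mg/kg livers lay at 258, 235, 278 and 279 CPM and its 40 mg/kg livers at 414, 824, 582 and 644 CPM. The 10 mg/kg livers were close together and the 40 mg/kg livers were spread over a wide range above them. Acly rose by 1.23 (SE 0.179, adjusted p = 0.0154). It lost its call without replicate 2 or 3 of 10 mg/kg or replicate 3 of 40 mg/kg (highest adjusted p 0.0678).

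Thrsp (gene 25357), known as Spot 14 and induced by thyroid hormone and carbohydrate in liver, lay at 564, 409, 598 and 630 CPM at 10 mg/kg. At 40 mg/kg it lay at 850, 1037, 993 and 889 CPM. It rose by 0.78 (SE 0.139, adjusted p = 0.0360), and its mean at 20 mg/kg, 970 ± 38.3 CPM, was above that of both other doses. Scd2 (gene 83792), a stearoyl-CoA desaturase that makes monounsaturated fatty acids, stood at 10.4, 11.8, 10.8 and 9.52 CPM at 10 mg/kg and at 16.5, 19.3, 15.4 and 14.7 CPM at 40 mg/kg. It rose by 0.64 (SE 0.111, adjusted p = 0.0338). Both lost their call in 6 of the 8 removals of 1 library (highest adjusted p 0.109 and 0.0853): Thrsp kept it only without replicate 1 or 4 of 10 mg/kg, and Scd2 only without replicate 1 of 10 mg/kg or replicate 4 of 40 mg/kg.

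The promoters of the 3 members with the smallest p are shown because these members rose together. The sequences are RefSeq's for build GRCr8, from 250 bases before to 50 bases after the gene's start, 5′ to 3′ on the gene's strand, and capitals mark CCAAT or its reverse complement ATTGG. They lie at chr10:45529115-45529414 (minus strand) for Srebf1, chr10:85963582-85963881 (minus strand) for Acly and chr1:253118127-253118426 (plus strand) for Scd2.
Srebf1: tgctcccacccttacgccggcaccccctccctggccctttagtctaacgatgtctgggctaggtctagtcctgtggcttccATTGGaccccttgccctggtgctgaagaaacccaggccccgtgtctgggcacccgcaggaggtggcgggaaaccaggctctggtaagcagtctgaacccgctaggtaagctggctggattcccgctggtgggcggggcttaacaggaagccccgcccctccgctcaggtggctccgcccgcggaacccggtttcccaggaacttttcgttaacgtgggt
Acly: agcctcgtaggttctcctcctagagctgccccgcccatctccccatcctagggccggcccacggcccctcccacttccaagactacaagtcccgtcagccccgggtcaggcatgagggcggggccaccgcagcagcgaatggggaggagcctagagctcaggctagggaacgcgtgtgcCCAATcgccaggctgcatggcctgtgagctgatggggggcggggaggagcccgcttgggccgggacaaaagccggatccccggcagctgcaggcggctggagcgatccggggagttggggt
Scd2: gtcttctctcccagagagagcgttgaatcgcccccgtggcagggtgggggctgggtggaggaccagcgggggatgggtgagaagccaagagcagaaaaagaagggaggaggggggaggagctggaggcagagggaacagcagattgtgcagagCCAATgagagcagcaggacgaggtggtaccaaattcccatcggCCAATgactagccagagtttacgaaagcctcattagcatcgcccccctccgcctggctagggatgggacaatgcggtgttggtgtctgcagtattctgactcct
Srebf1 has 1 CCAAT box, read on the opposite strand, at -169 from the start, Acly has 1 at -71, and Scd2 has 2 at -97 and -54. A CCAAT box on either strand was found in 38.4% of the 10159 tested genes with a promoter in the table. It was in 13 of the 21 higher and 13 of the 39 lower passing genes that have one, a difference that was not tested. The other 4 motifs searched on both strands had no match in these 3 windows: the sterol element TCACNCCAC (in 1.1% of tested promoters), the E-box CACGTG (9.34%), the D-box TTATGTAA (0.551%) and the CRE TGACGTCA (3.1%).

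Other enzymes of the pathway did not pass. Fasn, the fatty acid synthase, stood at 216, 238, 401 and 245 CPM at 10 mg/kg and at 513, 1329, 694 and 558 CPM at 40 mg/kg (log2 fold change 1.49, SE 0.350, adjusted p = 0.136). The doses did not overlap, but replicate 2 of 40 mg/kg stood far above the other 3 livers of its dose. Elovl6, which elongates palmitate, had its highest value, 49.9 CPM, in the same liver (log2 1.84, adjusted p = 0.157). Me1, the malic enzyme that supplies NADPH, lay at 68.3 to 89.6 CPM at 10 mg/kg and at 218, 128, 126 and 289 CPM at 40 mg/kg (log2 1.33, adjusted p = 0.10). Pnpla3, a lipid droplet protein, had the largest difference of the list, with 15.5 to 37.5 CPM against 93.9 to 331 CPM (log2 fold change 2.95, SE 0.512, adjusted p = 0.0817). Scd, the main liver desaturase, overlapped between doses (log2 1.24, adjusted p = 0.258). Acaca, the carboxylase that makes malonyl-CoA, had a difference of 0.51 on the log2 scale (adjusted p = 0.242). In the 12 other alternatives Pnpla3 passed in 5, Me1 in 3, Fasn in 2 and Elovl6 in 1, while Scd and Acaca passed in none. None of these 6 genes passed when 1 library was left out.

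**Figure D2:**
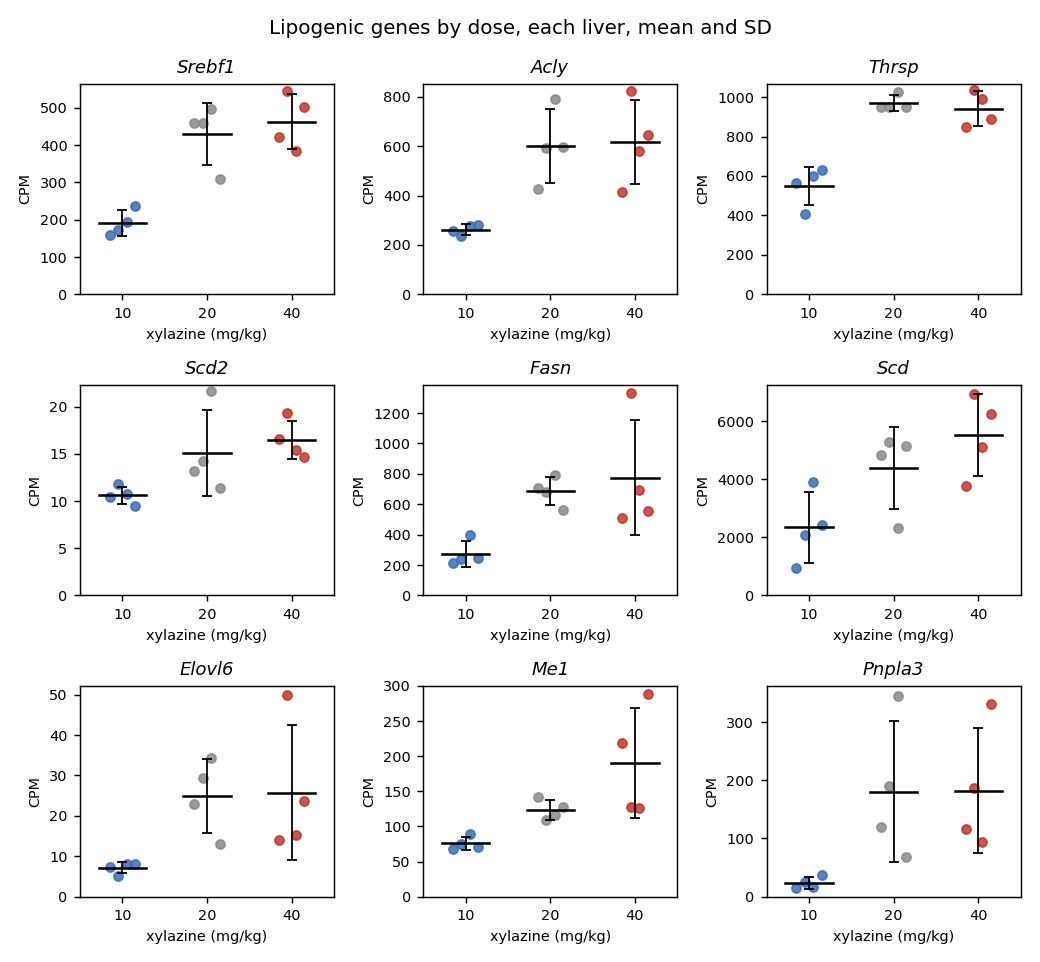
CPM of 9 genes of lipid synthesis in each liver (dots) at 10, 20 and 40 mg/kg, with mean and SD (n = 4 each); the y axes start at 0. Srebf1, Acly, Thrsp and Scd2 passed for 40 against 10 mg/kg. The 20 mg/kg livers mostly lie in the range of the 40 mg/kg livers. For Scd2 none does (13.2, 14.2, 21.7 and 11.4 CPM against 14.7 to 19.3 CPM). Srebf1, Scd, Elovl6, Me1 and Pnpla3 also have 20 mg/kg livers outside that range.

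In the list of NRF2 targets and pentose phosphate enzymes 14 of 20 tested members were positive, with a median of 0.07, and 17 were positive under total count scaling. Of the 20, 1 passed, as higher. An unadjusted p under 0.05 was found for 6 higher and 0 lower members. The doses did not overlap in 4 higher and 0 lower members. None passed without replicate 2 or 3 of 10 mg/kg or replicate 1 or 2 of 40 mg/kg. Hmox1 and Nqo1, which NRF2 induces under oxidative stress, had log2 fold changes of -0.09 and -0.44 (adjusted p = 0.828 and 0.831).

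Acot4 and Acot2, which hydrolyse acyl-CoA, also rose. Acot4 (gene 681337), a peroxisomal thioesterase of dicarboxylic and other acyl-CoAs, lay at 16.3, 10.8, 16.9 and 14.0 CPM at 10 mg/kg and at 37.3, 35.1, 26.8 and 29.2 CPM at 40 mg/kg (log2 fold change 1.14, SE 0.152, adjusted p = 0.0115). Acot2, its mitochondrial relative, rose by 0.72 (adjusted p = 0.0360). These genes are near copies of each other, so how the deposited counts were shared among them is uncertain. At the intermediate dose Acot4 was at 18.6 ± 4.0 CPM, nearer to 10 mg/kg than to 40 mg/kg. The list of peroxisomal oxidation and thioesterases had 15 positive members of 21, a median of 0.20 and 2 members passing. Its PPAR-alpha target Ehhadh, the peroxisomal bifunctional enzyme, had a difference of 0.46 on the log2 scale (adjusted p = 0.176). Acot4 held its call without any 1 library but not in the fit with all 16 libraries (adjusted p = 0.0788). Acot2 kept its call only without replicate 1 of 10 mg/kg or replicate 4 of 40 mg/kg (highest adjusted p 0.115 in the other removals).

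Neighbouring lists of lipid metabolism had no member that passed, apart from Srebf1 among the LXR targets. This depended on the scaling. Under total count scaling 1 cholesterol gene, 1 lipid droplet protein, 1 desaturase or elongase and 2 LXR targets passed, all higher. Cholesterol synthesis and uptake had 17 positive members of 25 and a median of 0.06, and 21 were positive under total count scaling. Among the 11 lipid droplet proteins, Plin2, which coats the droplets, had the smallest p (log2 0.75, adjusted p = 0.0638), with 198, 121, 205 and 178 CPM against 295, 331, 282 and 269 CPM. Plin2 passed in 7 of the 12 other alternatives and in 1 of the 8 removals. Among the 12 desaturases and elongases 10 were positive (12 under total count scaling), with a median of 0.25, and Fads2, the delta-6 desaturase, stood at 0.47 (adjusted p = 0.117). Fatty acid oxidation and ketogenesis split into 13 positive and 12 negative members, with Cpt1a, the gate of mitochondrial oxidation, at -0.55 (adjusted p = 0.414). Under total count scaling 19 of these 25 were positive, and with limma on TPM 22 of 24. Lpin1, a phosphatidate phosphatase, had a log2 fold change of -2.45 but ranged from 98.7 to 542 CPM at 10 mg/kg (adjusted p = 0.143). Of the 12 targets of the sterol receptor LXR, Srebf1 was the 1 that passed, and 7 were negative, where total count scaling made 7 positive.

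Glucose-making and amino acid enzymes had single members that passed as lower at 40 mg/kg, and whether they fell as groups was not tested. Pck1 (gene 362282), the cytosolic carboxykinase that commits oxaloacetate to glucose, stood at 3210, 2777, 2724 and 2824 CPM at 10 mg/kg and at 1152, 1241, 1650 and 830 CPM at 40 mg/kg. All 40 mg/kg livers were far below the 10 mg/kg livers, which were close to each other. Pck1 fell by 1.24 on the log2 scale (SE 0.180, adjusted p = 0.0146), and at 20 mg/kg it lay between, at 1922 ± 394 CPM. It lost its call without replicate 2 of 10 mg/kg or replicate 1 or 2 of 40 mg/kg (highest adjusted p 0.0606). Got1 (gene 24401), which transfers the amino group of aspartate in the cytosol, fell from 102, 124, 120 and 144 CPM to 62.4, 57.0, 74.6 and 54.9 CPM (log2 fold change -0.98, SE 0.125, adjusted p = 0.00875). Its call held without any 1 library but ended in the fits with 12 and with 16 libraries (highest adjusted p 0.127), and 20 mg/kg replicate 4 stood above every 10 mg/kg liver at 185 CPM.

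These 2 were the only genes passing among the 16 tested of gluconeogenesis, where 11 were negative and the median was -0.05, a median that was positive under total count scaling and limma on TPM or FPKM, where 9 members were positive. Sds, the serine dehydratase, had a larger difference than either but ranged from 11.4 to 49.7 CPM at 10 mg/kg against 2.75 to 6.51 CPM (log2 -2.92, adjusted p = 0.0859). G6pc1, which releases free glucose, was positive (log2 0.61, adjusted p = 0.506). Among the enzymes of amino acid catabolism 28 of 34 were negative, with a median of -0.14, and Got1 alone passed. With total count scaling 15 of these 34 were positive and with limma on TPM 16. Without replicate 2 of 40 mg/kg the median was -0.24. The urea cycle list had no member that passed and a median of -0.14 (-0.08 without replicate 1 of 40 mg/kg).

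Got1, Pck1 and Zbtb16 also stood in the list of glucocorticoid-induced genes, where they were the 3 members passing of 20, all lower. In that list 14 members were negative, the median was -0.45, and the 40 mg/kg livers lay below all 10 mg/kg livers in 8. Over all 12383 genes tested they did so in 548. Between 2 and 6 members passed when 1 library was left out, 6 of them without replicate 1 of 10 mg/kg. The median then lay between -0.80, without replicate 4 of 40 mg/kg, and -0.32, without replicate 1 of 10 mg/kg. Zbtb16 (gene 353227) encodes the zinc finger repressor PLZF and is strongly induced by glucocorticoids in many cells. Its level was 39.9, 97.4, 78.0 and 52.1 CPM at 10 mg/kg and 6.12, 3.26, 3.99 and 7.31 CPM at 40 mg/kg. The lowest 10 mg/kg liver was far above the highest 40 mg/kg liver, and the 20 mg/kg livers lay with the latter at 8.47 ± 3.94 CPM. Zbtb16 fell by 3.69 on the log2 scale (SE 0.382, adjusted p = 0.0115), the largest change among the passing genes with at least 5 CPM. The call ended without replicate 3 of 40 mg/kg (adjusted p = 0.0552).

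Other members of the list did not pass although the doses did not overlap. Cdkn1a, the cell cycle inhibitor p21, stood at 31.0 ± 8.08 CPM against 10.0 ± 3.64 CPM (log2 -1.63, adjusted p = 0.0626), and Klf9, a Kruppel-like factor, at 19.2 ± 6.70 against 7.09 ± 1.64 CPM (log2 -1.44, adjusted p = 0.0557). Both were chosen after their values were seen. Per1, a clock gene that glucocorticoids also induce, stood at 35.4, 12.2, 21.1 and 12.4 CPM against 4.12, 5.51, 7.17 and 5.85 CPM (log2 -1.84, adjusted p = 0.106). Sgk1, a kinase likewise chosen after its values were seen, had the opposite sign, at 1.24 on the log2 scale (adjusted p = 0.321). Fkbp5 and Tsc22d3, chosen in the same way as widely used readouts of the glucocorticoid receptor, stood at -0.38 and -0.52 (adjusted p = 0.349 and 0.707). In the core clock list 8 of 17 were positive and none passed, with Per2 at 1.07, Nr1d1 at -1.85 and Arntl, which encodes BMAL1, at 0.11 (adjusted p between 0.217 and 0.641).

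The promoter of Got1 is shown because, of the passing members of this list with a promoter in the table, it alone matched a motif. It lies at chr1:252329822-252330121 (minus strand, GRCr8), and capitals mark CCAAT and ATTGG.
Got1: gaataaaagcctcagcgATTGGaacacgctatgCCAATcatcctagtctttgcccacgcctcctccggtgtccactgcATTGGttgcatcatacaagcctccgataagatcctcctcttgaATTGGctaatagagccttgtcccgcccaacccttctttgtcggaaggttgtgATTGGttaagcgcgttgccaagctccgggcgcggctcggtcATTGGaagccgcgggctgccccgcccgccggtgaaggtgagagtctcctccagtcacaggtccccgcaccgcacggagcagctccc
It holds 6 boxes, at -233, -217, -172, -129, -77 and -36 from the start. At least 1 such box was in 38.4% of tested promoters and in 13 of the 39 lower passing genes with a promoter. Since the window was chosen for its match, the boxes are a description. The Pck1 window has no match to any of the 5 motifs.

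**Figure D3:**
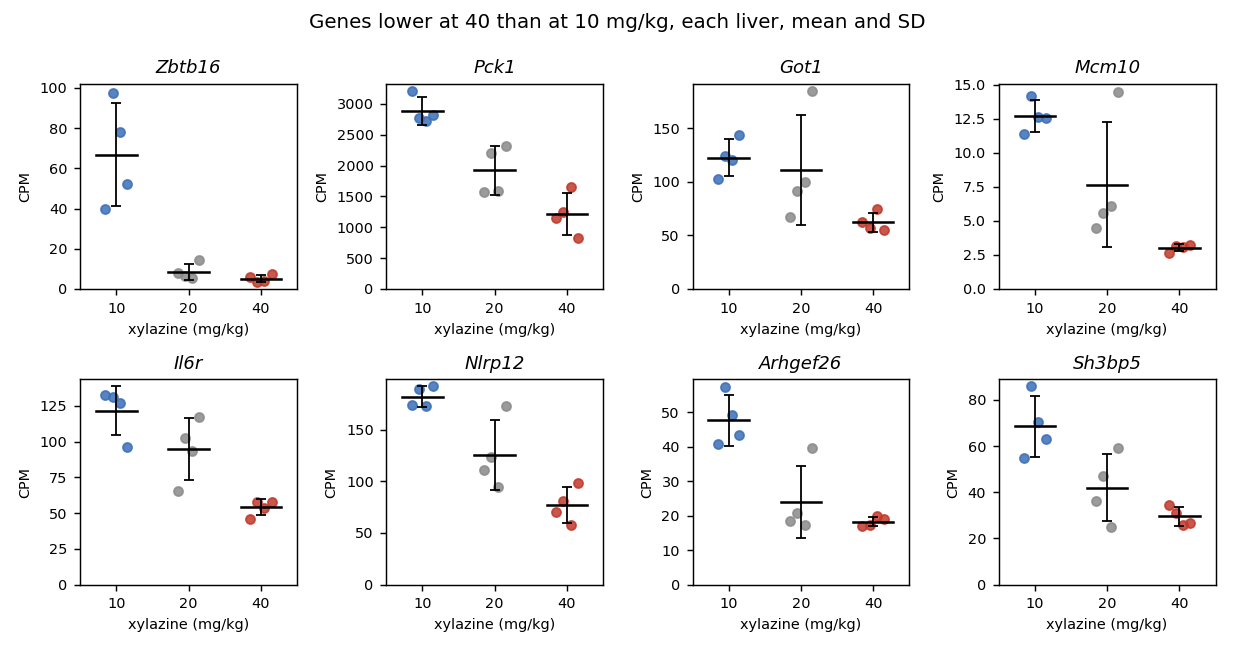
CPM of 8 genes lower at 40 than at 10 mg/kg in each liver (dots) at 10, 20 and 40 mg/kg, with mean and SD (n = 4 each); the y axes start at 0. Pck1, Nlrp12, Il6r and Sh3bp5 have intermediate means at 20 mg/kg, while Zbtb16 is already at 8.47 CPM there.

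Mcm10 (gene 307126), which helps to start the replication fork, had the smallest adjusted p of all genes. It lay at 11.4, 14.2, 12.7 and 12.5 CPM at 10 mg/kg and at 2.65, 3.14, 3.06 and 3.21 CPM at 40 mg/kg. Within each dose the livers were nearly alike, and Mcm10 fell by 2.07 on the log2 scale (SE 0.12, adjusted p = 3.84e-05). Its call held without any 1 library and in all 12 other alternatives, with a log2 fold change between -2.12 and -1.25. At 20 mg/kg, 3 livers stood at 4.49, 5.59 and 6.07 CPM and replicate 4 at 14.5 CPM. Other genes of replication licensing did not follow: Mcm10 alone passed among 19, with 5 positive members and a median of -0.07, and 11 were positive under total count scaling. Mcm4 and Mcm7, helicase subunits chosen after their values were seen, stood at -0.06 and -0.07 (adjusted p = 0.900 and 0.892).

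Genes of mitosis were lower in 40 mg/kg livers as a list, but at low levels and with wide spread at 10 mg/kg. Of 27 tested members 25 were negative, and the median log2 fold change was -1.52. In 18 members the 40 mg/kg livers lay below all 10 mg/kg livers, as they did in 548 of all 12383 genes tested. A single member passed, Ccna2 (gene 114494), the cyclin of S phase and mitotic entry. It stood at 1.23, 2.67, 3.87 and 1.48 CPM at 10 mg/kg and at 0.530, 0.533, 0.578 and 0.468 CPM at 40 mg/kg (log2 fold change -2.12, SE 0.39, adjusted p = 0.0432). Cdca3, a cell cycle gene outside the list and chosen after its values were seen, fell by 2.25 (adjusted p = 0.0432). Averaged over the list, the 10 mg/kg livers stood at 0.00058, 0.58, 1.27 and 0.14 on a log2 scale centred on all 8 livers, and the 40 mg/kg livers at -0.53, -0.69, -0.48 and -0.29. Replicate 3 of 10 mg/kg was thus highest, and replicate 1 of that dose stood nearest to the 40 mg/kg livers. Without replicate 1 of 10 mg/kg 8 members passed, and none did without replicate 2 of that dose or without any 1 liver of 40 mg/kg. Replicates 3 and 4 of 10 mg/kg left 2 each when removed. None passed under total count scaling, DESeq2 called 16 members, and 23 lower members had an unadjusted p under 0.05. Ccna2 kept its call only without replicate 1 or 4 of 10 mg/kg (highest adjusted p 0.123 in the other removals). In bulk liver, fewer cells of a type and less RNA per cell cannot be told apart. Markers of macrophages summed to between 624 and 773 CPM at 10 mg/kg and between 547 and 755 CPM at 40 mg/kg, and those of T and NK cells to between 35.0 and 43.9 and between 26.1 and 41.2 CPM. Their part in the result was not tested.

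Immediate early genes, which cells switch on within minutes of a stimulus, were also mostly lower at 40 mg/kg, but the doses were less separated. In 3 of 21 the 40 mg/kg livers lay below all 10 mg/kg livers, against 18 of 27 mitosis genes and 548 of all 12383 genes tested. Of 21 tested, 20 were negative, with a median of -0.97 (-0.59 without replicate 3 of 10 mg/kg), and 2 passed, both lower. Btg2, an antiproliferative gene that p53 also induces, lay at 30.1, 44.7, 56.2 and 28.0 CPM at 10 mg/kg and at 15.9, 14.7, 18.8 and 15.5 CPM at 40 mg/kg (log2 fold change -1.29, SE 0.219, adjusted p = 0.0432). Zfp36, which encodes the mRNA decay factor tristetraprolin, fell by 0.93 (SE 0.170, adjusted p = 0.0455), from 86.6, 92.0, 135 and 98.6 CPM to 51.2, 54.7, 42.3 and 67.5 CPM. Fos, a subunit of the AP-1 factor chosen after its values were seen, had the most negative log2 fold change of the list, -3.29, but stood at 13.3 ± 16.6 CPM at 10 mg/kg (adjusted p = 0.301). The list average was -0.41, 0.46, 1.15 and 0.53 in the 10 mg/kg livers and between -0.69 and -0.20 in the 40 mg/kg livers, so that replicate 1 of 10 mg/kg lay among the latter. Without that liver 5 members passed, and none did without replicate 2 of 10 mg/kg or replicate 1, 2 or 3 of 40 mg/kg. None passed under total count scaling or limma on TPM either. Btg2 kept its call only without replicate 1, 3 or 4 of 10 mg/kg, and Zfp36 only without replicate 1 of 10 mg/kg or replicate 4 of 40 mg/kg (highest adjusted p 0.141 and 0.137 in the other removals).

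**Figure D4:**
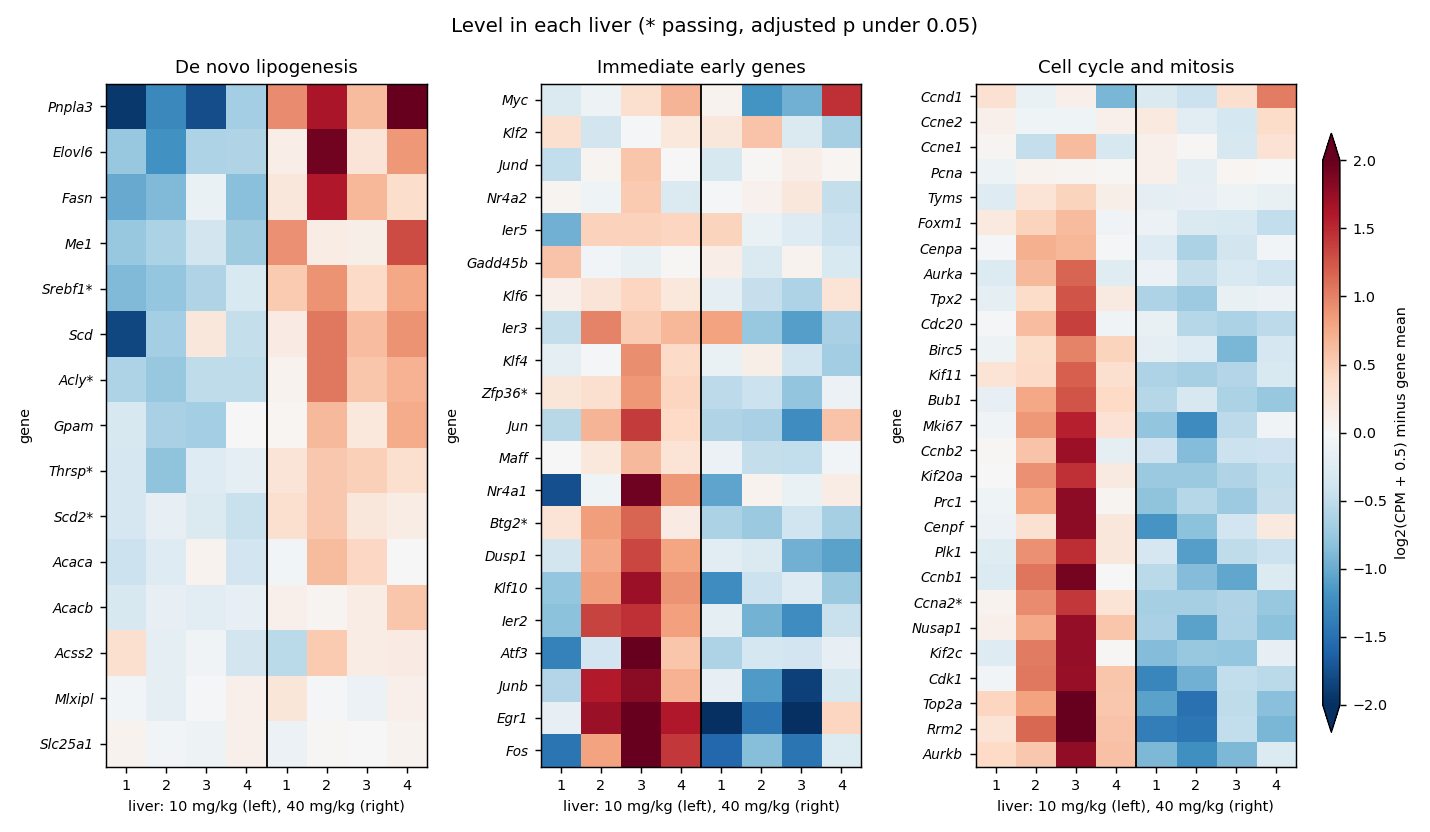
Level of each tested member of 3 lists in each liver, as log2(CPM + 0.5) minus the gene's mean over 8 livers (colour), with the 4 livers of 10 mg/kg left and those of 40 mg/kg right of the line; genes are ordered by log2 fold change and * marks those passing. Replicate 3 of 10 mg/kg is highest for most cell cycle and immediate early genes, at a list average of 1.27 and 1.15.

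Among immune genes, 2 receptors of inflammatory signalling fell. Nlrp12 (gene 292541), an intracellular receptor that dampens NF-kB signalling, lay at 174, 189, 173 and 192 CPM at 10 mg/kg and at 70.1, 80.5, 57.4 and 98.8 CPM at 40 mg/kg (log2 fold change -1.25, SE 0.144, adjusted p = 0.00686). Il6r (gene 24499), the interleukin-6 receptor through which hepatocytes raise acute phase proteins, stood at 132, 131, 127 and 96.1 CPM against 46.1, 58.0, 53.9 and 57.8 CPM (log2 fold change -1.17, SE 0.119, adjusted p = 0.00280). Both kept their calls without any 1 library and in the 12 other alternatives. At 20 mg/kg Nlrp12 stood at 125 ± 33.8 CPM and Il6r at 94.7 ± 21.9 CPM.

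The lists around them moved less. Nlrp12 alone passed among 16 inflammation genes, where 12 were negative (8 under total count scaling) and the median was -0.08. Among acute phase proteins 20 of 22 were negative and none passed, with a median of -0.23. Serpina3n, the member with the smallest p, stood at 3249 ± 444 against 2327 ± 274 CPM (log2 -0.48, adjusted p = 0.149), and Crp at a difference of -0.25 on the log2 scale (adjusted p = 0.417). In the MHC class I list 23 of 26 were negative and none passed (median -0.36), and in the interferon list 25 of 30 were negative and none passed (median -0.17). With total count scaling the negative members numbered 17, 22 and 22 in these last 3 lists. The RT1 class I genes are near copies of one another, so their counts are uncertain. Gdf15, a stress hormone of injured liver, and Lcn2, a neutrophil and hepatocyte injury protein, had log2 fold changes of -1.75 and 0.09 (adjusted p = 0.282 and 0.969).

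Among enzymes that oxidise foreign compounds, Fmo1 and Fmo4, monooxygenases chosen after their values were seen, fell by 0.70 and 0.75 (adjusted p = 0.0259 and 0.0154), and Fmo5 stood at -0.51 (adjusted p = 0.0929). No member of the cytochrome P450 families 2 and 4 passed, of which 11 of 25 were positive with a median of -0.04, and 16 were positive under total count scaling. The induced P450 genes Cyp2b1 and Cyp3a2 stood at log2 fold changes of 0.03 and -0.37 (adjusted p = 0.991 and 0.629). Cyp1a2 stood at -0.97 (adjusted p = 0.156), at 1128 to 2465 CPM against 587 to 937 CPM. Its doses did not overlap, as in 548 genes of all 12383 tested in which 40 mg/kg was lower. All 7 tested members of the AhR target list were negative and none passed, with a median of -0.44. Male-specific Cyp2c11 and the ethanol-induced Cyp2e1 stood at -0.13 and -0.16 (adjusted p = 0.744 and 0.830). None of the 35 phase II transferases passed.

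In bile acid metabolism Amacr (gene 25284), a racemase needed for the side chain of bile acids and branched fatty acids, lay at 322, 436, 449 and 413 CPM at 10 mg/kg and at 269, 225, 259 and 210 CPM at 40 mg/kg. It fell by 0.75 (SE 0.125, adjusted p = 0.0259) and was the 1 member passing of 24, of which 17 were negative. Under total count scaling and limma on TPM or FPKM 13 of the 24 were positive and none passed. Its call held only without replicate 1 of either dose (highest adjusted p 0.101 in the other removals) and ended in 7 of 12 other alternatives (highest adjusted p 0.127). Cyp8b1, which sets the share of cholic acid, did not overlap between doses but did not pass (194 ± 76.2 against 82.7 ± 30.8 CPM, log2 -1.23, adjusted p = 0.211). Cyp7a1, the first enzyme of the pathway, stood at 0.54 (adjusted p = 0.683).

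**Figure D5:**
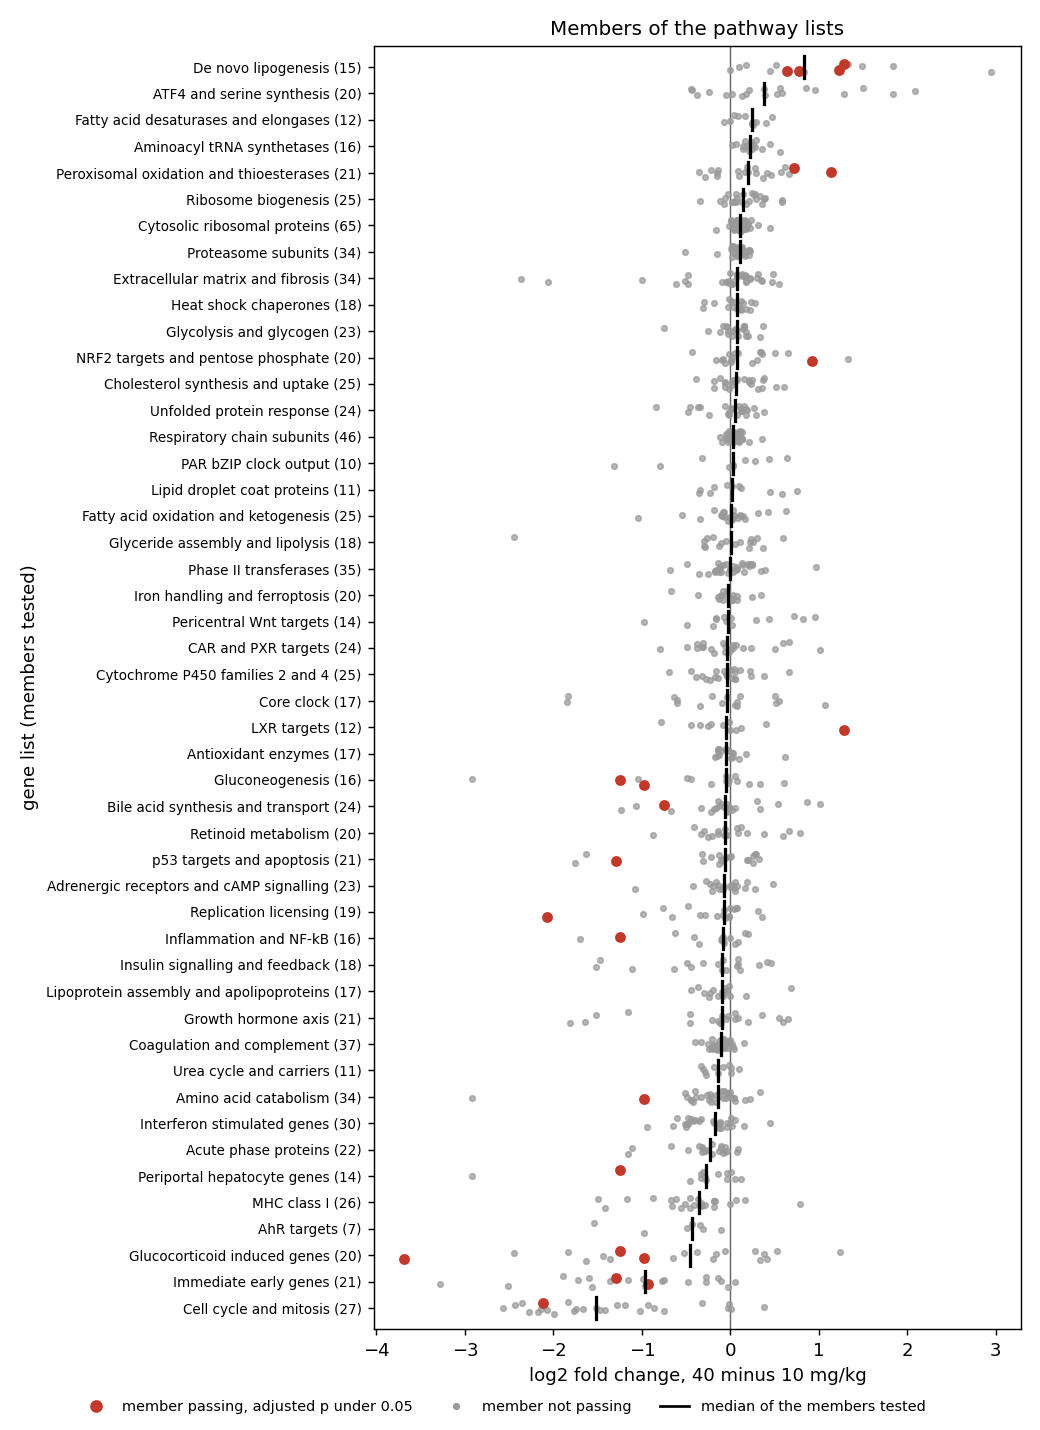
Log2 fold change of 40 against 10 mg/kg (x axis) of each tested member of the 48 pathway lists (dots), with passing members in red and the median as a bar; lists are ordered by their median. De novo lipogenesis has the highest median, 0.83, and cell cycle and mitosis the lowest, -1.52.

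The remaining named genes that rose belong to no list. Sgk2 (gene 171497), a kinase related to the serum and glucocorticoid-regulated kinase Sgk1, stood at 17.2, 11.8, 13.6 and 15.7 CPM at 10 mg/kg and at 33.0, 43.1, 36.3 and 30.5 CPM at 40 mg/kg (log2 fold change 1.29, SE 0.138, adjusted p = 0.00389). It kept its call without any 1 library but not in the fit with all 16 (adjusted p = 0.0622). Otub2, a deubiquitinase, rose by 1.15 and Rasd1, a Ras-like protein first found as induced by dexamethasone, by 1.06 (adjusted p = 0.0146 and 0.0144). Rasd1 lay at 37.6, 26.4, 28.5 and 29.0 CPM against 69.9, 57.1, 75.9 and 50.1 CPM, with no overlap. Parvb, an actin-binding protein of focal adhesions, rose by 0.84 (SE 0.126, adjusted p = 0.0154). Rasd1 and Parvb lost their calls without replicate 2 or 3 of 10 mg/kg, and Otub2 without replicate 3 (highest adjusted p 0.0620, 0.0534 and 0.0534). The quasi-likelihood fits with 12 and with 16 libraries also ended the calls of Rasd1 and Otub2 (highest adjusted p 0.111 and 0.0719). Kifc3, a kinesin motor, Osbpl11, a lipid transfer protein of the oxysterol-binding family, Mcrip2 and Kank2 rose by 0.94, 0.81, 0.84 and 0.79 (adjusted p between 0.0186 and 0.0432). Each of these last 4 lost its call in 4 to 6 of the 8 removals, replicate 3 of 10 mg/kg and replicates 2 and 3 of 40 mg/kg among them for all 4 (highest adjusted p 0.123).

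The largest rise among all passing genes was that of Sult4a1, a sulfotransferase-like protein known from brain, chosen after its values were seen because its level was under 5 CPM. It stood at 0.123, 0.248, 0.357 and 0.603 CPM at 10 mg/kg and at 2.35, 4.26, 2.60 and 6.90 CPM at 40 mg/kg (log2 fold change 3.58, SE 0.485, adjusted p = 0.0115). The 10 mg/kg values rest on few reads, since 3 counts of a library amount to between 0.173 and 0.201 CPM.

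Named genes that fell outside the lists were Arhgef26, Sh3bp5, Banp, Ankrd33b and Exph5. Arhgef26 (gene 310460), a guanine nucleotide exchange factor, stood at 40.7, 57.3, 49.1 and 43.3 CPM at 10 mg/kg and at 17.1, 17.3, 19.8 and 18.9 CPM at 40 mg/kg (log2 fold change -1.38, SE 0.113, adjusted p = 0.000688). Sh3bp5, a JNK-binding protein of the mitochondrial outer membrane, lay at 54.9, 85.8, 70.2 and 63.1 CPM against 34.4, 31.1, 25.8 and 26.7 CPM (log2 -1.22, adjusted p = 0.00686). Both kept their calls without any 1 library and in the 12 other alternatives. Banp, a nuclear DNA-binding protein, fell by 1.18 (adjusted p = 0.0115) from 6.51 ± 0.770 to 2.87 ± 0.486 CPM, and lost its call without replicate 2 of 10 mg/kg (adjusted p = 0.0513). Exph5, a Rab27 effector, and Ankrd33b fell by 1.34 and 1.61 (adjusted p = 0.0374 and 0.0358) but lost their calls in 7 and 6 of 8 removals (highest adjusted p 0.127 and 0.128), held without replicate 1 of 10 mg/kg by both and without replicate 4 of that dose by Ankrd33b.

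The 20 mg/kg livers, which did not enter the test, had a mean between those of the other doses for 70 of the 73 passing genes. The remaining 3, Thrsp, Osbpl11 and Sult4a1, had a higher mean at 20 mg/kg than at either other dose. On the log scale 17 of the 26 higher genes lay nearer to 40 mg/kg and 6 nearer to 10 mg/kg. Of the 47 lower genes 35 lay nearer to 40 mg/kg and 12 nearer to 10 mg/kg, among them Il6r and Btg2. Replicate 4 of 20 mg/kg weighed on these counts, and the livers of that dose were left out 1 at a time after the data had been seen. Without replicate 4, 2 higher and 6 lower genes lay nearer to 10 mg/kg, and 6 higher and 4 lower genes had a mean outside those of the other doses. Mcm10, Got1, Pck1 and Nlrp12 then moved from nearer 10 mg/kg to nearer 40 mg/kg. Without any 1 of the other 3 livers 8 higher and 15 to 18 lower genes lay nearer to 10 mg/kg. Since the genes were chosen for their difference between the outer doses, these positions are a description.

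Adrenergic receptors, the class to which the target of xylazine belongs, were at low level or did not pass. Adra2a, the alpha-2A receptor, had no count in any of the 8 libraries, which allows up to 0.201 CPM, counting error only, and was not tested. Adra2b, the alpha-2B receptor, stood at 3.75, 10.54, 7.85 and 5.43 CPM at 10 mg/kg and at 13.4, 6.39, 8.67 and 10.0 CPM at 40 mg/kg, with overlapping doses (log2 fold change 0.48, SE 0.329, adjusted p = 0.582). Adra1b, the main alpha-1 receptor of rat hepatocytes, stood at 64.8 ± 11.3 against 60.6 ± 6.18 CPM (log2 -0.10, adjusted p = 0.786). No member of the list of adrenergic receptors and cAMP signalling passed among 23.

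Markers of other cell types had no member that passed. Blood cell markers summed to between 514 and 829 CPM at 10 mg/kg, and at 40 mg/kg to 1984 and 1481 CPM in replicates 1 and 2 but 444 and 399 CPM in replicates 3 and 4. Cholangiocyte markers summed to between 71.7 and 83.2 CPM at 10 mg/kg and between 81.2 and 113 CPM at 40 mg/kg, and all 8 tested were positive, with a median of 0.70. That median was 0.25 without replicate 2 of 40 mg/kg, 0.32 without replicate 1 of 10 mg/kg and 0.46 without replicate 3 of 10 mg/kg. Markers of sinusoidal endothelium lay between 234 and 294 CPM and between 236 and 392.1 CPM, with 14 of 15 positive and a median of 0.27 (0.13 to 0.43 when 1 library was left out, lowest without replicate 2 and highest without replicate 3 of 40 mg/kg). Stellate cell markers overlapped, at 244 to 360 against 268 to 371 CPM, and Col1a1, the main fibrous collagen, stood at 0.55 (adjusted p = 0.365). Adipoq of fat cells and Cpa1 of the pancreas were at 0 in all 8 libraries. The part of these markers in the results above was not tested.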

How the data were processed

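The authors deposited 1 table with expected counts (estimated reads per gene), TPM, FPKM and a normalized read signal for each library. Bowtie2, RSEM, DESeq2 and the build mRatBN7.2 are named in the submitters' processing notes; versions, strand and read filters are not given in the sources used here. The TPM and FPKM that the authors deposited served as alternatives, and the deposited signal was not used.

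Expected counts were rounded (92.4% to 92.9% of values per library were whole). Genes were kept by filterByExpr (minimum count 10, minimum total 15), scaled by TMM and tested with edgeR 4.0.16 (R 4.3.3) on the 8 libraries, with Benjamini-Hochberg adjustment and a threshold of 0.05. The SE is the log2 fold change divided by the root of F. Levels at 20 mg/kg use 1 TMM scaling over 12 libraries, which moved no mean of a passing gene by more than 0.164%. Alternatives used limma 3.58.1 and DESeq2 1.42.0. Of the tests, only the edgeR quasi-likelihood test on the 8 libraries was run on simulated data.

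The text names, per direction, the 12 passing genes that changed most and reached a mean of 5 CPM in 1 dose and have a symbol that is not a placeholder, up to 4 passing members of each list (or the 1 with the smallest p), and a fixed set of liver genes; a few of these genes are not reported here. The comparison, genes and lists were chosen with earlier results of these data known. Of 17544 gene IDs, 17324 matched RefSeq.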

Additional observations from a re-analysis of the deposited data

Results flagged for a closer look

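In 13 of 256 groups of 4 livers 1 value lay far from the other 3, about the share that chance gives (1 in 20 groups). The cases are listed as a description. Among passing genes, replicate 4 of 10 mg/kg was lowest for Banp at 5.36 CPM (the others 6.76 to 7.02) and for Il6r at 96.1 CPM (127 to 132), and also for Pltp, which did not pass, at 24.9 CPM (29.6 to 30.4). Replicate 1 of 10 mg/kg was highest for Lpcat3 at 99.3 CPM (80.9 to 82.8), Slc4a1 at 5.84 CPM (1.88 to 2.44), Dbp at 2.71 CPM (1.55 to 1.68) and Ehhadh at 390.4 CPM (305 to 316), and lowest for Isg15 at 5.78 CPM (6.18 to 6.27). Fasn stood at 400.8 CPM in 10 mg/kg replicate 3 (216 to 245). At 40 mg/kg, Cyp7a1 stood at 97.1 CPM in replicate 1 (215 to 232). In replicate 2, Nr1d1 stood at 1.36 CPM (1.0 to 1.05) and Lcn2 at 8.64 CPM (1.64 to 2.31). Hepatocyte markers summed to 179300 CPM in replicate 1 (194200 to 196000).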

How the results depend on the processing

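Of 29 named passing genes none changed direction in the 8 removals and up to 12 other alternatives run, and Srebf1, Mcm10, Arhgef26, Nlrp12, Sh3bp5 and Il6r kept their call in all; 20 lost it in at least 1 removal and 21 in at least 1 other alternative. The 73 passing genes became 352 with DESeq2 (all 73 among them), 46 with all 16 libraries in the fit, 157 at an adjusted p under 0.1 and 25 with a log2 fold change of at least 1. Leaving out 1 library gave 20 to 183. The replicate block gave 45, of which 34 were shared, and ended the calls of 13 named genes. These were Zbtb16 (adjusted p = 0.13), Acly (0.0524), Kifc3, Parvb, Mcrip2, Osbpl11, Kank2, Exph5, Thrsp, Acot2, Amacr, Ccna2 and Zfp36. The labels do not say that a replicate number marks anything shared. Over all tested genes, deviations from the dose mean correlated between -0.103 and 0.0705 in same-numbered livers. Livers with unlike numbers correlated between -0.0774 and 0.143. These correlations cannot show whether same-numbered livers share something that acts on part of the genes. The causes were not tested.

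Genes that did not pass changed sign near 0. Lcn2 turned to -0.0664 with limma-voom, -0.00529 on FPKM, -0.0411 with the replicate block and lay between -0.747 and 0.469 in removals. In removals Cyp2b1 lay between -0.266 and 0.807, Igf1 between -0.179 and 0.0564, Hmox1 between -0.198 and 0.00877, and Adra1b between -0.172 and 0.0264. Adra1b turned to 0.0180 and 0.0187 on TPM with 1 or 0.1 added. Counts of a few reads limit the mitotic genes.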

Other observations

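Most genes of protein synthesis and turnover had positive log2 fold changes, and none passed. All 16 aminoacyl tRNA synthetases, which charge tRNAs, were positive with a median log2 fold change of 0.23. Of 65 cytosolic ribosomal proteins 63 were positive (median 0.11), as were 32 of 34 proteasome subunits (median 0.11). TMM and total count scaling differed by 0.0849 on the log2 scale between doses, close to the last 2 medians. The medians above are after TMM, and total count scaling moved the median of all genes to 0.0847. In the alternatives other than removals the ribosomal median lay between 0.0976 and 0.198 and the proteasome median between 0.101 and 0.195. In the ATF4 and serine synthesis list 15 of 20 were positive (median 0.38), with Atf5, a stress transcription factor, at 0.53 (adjusted p = 0.0581 by edgeR's quasi-likelihood test). Atf5 passed in 7 of the 12 other alternatives and in no removal. Replicate 4 of 40 mg/kg stood highest in the synthetase and ATF4 lists, at an average of 0.37 and 0.74 on a log2 scale centred on all 8 livers, where the other 3 livers of its dose lay between -0.01 and 0.09 and between -0.22 and 0.07. Without it the medians of the synthetases, ribosomal proteins and ATF4 list were 0.11, 0.03 and 0.14. The proteasome median was 0.07 without replicate 1 of 40 mg/kg.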
